A study of Arabidopsis thaliana with 6 samples.

Results

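The transcriptome of dark-grown Arabidopsis thaliana seedlings held in air was described from 2 arrays, out of 6 in the study. Seedlings of the Columbia glabra ecotype were grown for 4 days in darkness at 23 °C in Murashige and Skoog medium with no sugar added. The air group was then kept for a further 6 h in the same aerobic conditions, the anoxia group spent those 6 h without oxygen, and the third group spent them without oxygen in 90 mM sucrose. Each group has an array from experiment 1 and an array from experiment 2, each made from a pool of 4 seedling cultures that was formed after RNA extraction, with about 10 µg of total RNA per target.

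Each array reports a signal, an intensity that is never negative, for 22810 probe sets. After 64 control probe sets were left out, 22746 were ranked by signal within each air array, and the 2 ranks were averaged. Ranks are given as percentiles, with 100 for the brightest probe set, and the highest 1% by mean rank is a group of 227 probe sets. The ranking describes the air arrays and was not tested. The brightness of a probe set also depends on how well its probes bind, so the order is one of signals and not of transcript numbers, and it means little among signals near 0. A whole seedling was extracted, so fewer cells of a type and less RNA per cell cannot be told apart.

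A seedling that germinates in darkness is etiolated: it lengthens its hypocotyl, keeps its cotyledons closed and builds etioplasts, which hold protochlorophyllide and the enzyme that reduces it but no working photosystems. It lives on reserves laid down in the seed, chiefly oil, which beta-oxidation and the glyoxylate cycle turn into sugar. With no sugar in the medium, amino acids can also be broken down for energy.

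The 2 air arrays ranked the probe sets alike at the top and less so below. Spearman's rho across the 22746 probe sets was 0.93, which is a description across features of 2 arrays. The median probe set moved by 5.98 percentile points between the arrays, and the median of the highest 1% moved by 0.251 points. No probe set of the highest 1% moved by more than 1.63 points or fell below the percentile of 98.1 on either array. Of the 227 probe sets in the highest 1% of a single air array, 145 were in the highest 1% of the other. At the bottom, 6648 probe sets (29.2%) read below 16 on both air arrays.

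The arrays differed in brightness and in the control probes. The median signal was 46.2 in experiment 1 and 30.8 in experiment 2, and the highest 1% of each array held 19.2% and 19.8% of its summed signal. The ratio of the 3′ to the 5′ control probe sets, which rises as transcripts or targets become shorter, was 4.24 and 1.73 for actin and 2.42 and 1.82 for GAPDH in the air arrays of experiments 1 and 2. A second pair of probe sets for each gene gave the same order, 18.5 and 8.94 for actin and 1.40 and 0.761 for GAPDH. In anoxia with sucrose the first actin ratio reached 21.6 for actin on the array of experiment 1, which also had the lowest median signal of the 6 (21.2).

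**Figure D1:**
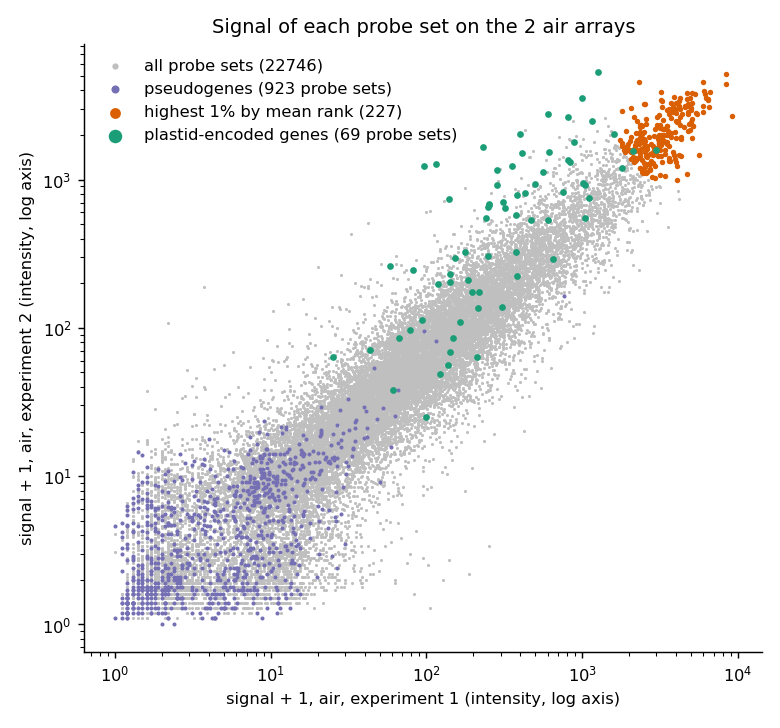
Each point is a probe set, with its signal plus 1 in air in experiment 1 on the horizontal axis and in experiment 2 on the vertical axis, both logarithmic. The 227 probe sets of the highest 1% (orange) keep together, the 69 plastid-encoded genes (green) lie mostly above the main cloud, and the pseudogenes (purple) crowd the low end.

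Gene names cover only some of the bright probe sets. Of all ranked probe sets, 13436 (59.1%) were matched to a single locus of the RefSeq annotation, and they represent 13286 loci. In the highest 1% only 72 of 227 (31.7%) were matched, and 146 carried no gene in the platform annotation. The genes named here are therefore a partial view of the brightest signals. A listed gene is called measured here where a probe set was matched to its locus alone. The other listed genes may have signals on probe sets that stayed unnamed. Over the 13286 loci, each taken at its brightest probe set, the median percentile was 44.8. Of these loci, 921 (6.93%) lay at or above the 90th percentile and 4755 (35.8%) below the 30th.

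The highest named locus was AT2G45180, of the lipid-transfer protein superfamily, with signals of 6027.5 in experiment 1 and 3956.1 in experiment 2. It ranked 4th of all probe sets. PYK10, the beta-glucosidase that fills the ER bodies of seedlings and roots, followed with 5041.1 and 3265.2. Both air arrays placed these genes in the same narrow range at the top, although experiment 1 gave the higher raw signal. AT1G78040, of the Ole e 1 and extensin family, read 4243.0 and 3539.8, and the glycine-rich protein gene AT2G05540 read 4578.5 and 3144.5. AT3G48140, a B12D-family gene, read 5434.7 and 2758.9, a wider gap between the experiments than for its neighbours in rank. All 5 lay between the percentiles 99.85 and 99.97.

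Genes for stress proteins and secreted enzymes also stood there. COR47, a dehydrin that protects cells during water loss, read 4028.4 and 2997.4. The class III peroxidase gene AT2G37130 read 4827.4 and 2385.7, and AT3G16370, a GDSL lipase gene, read 4234.1 and 2330.8. The acid phosphatase gene AT5G44020 read 4187.3 and 3126.2. Of the 40 highest named genes, only AT1G12080, UBC28 and AT4G29020 were brighter in experiment 2 in raw signal; UBC28, a ubiquitin-conjugating enzyme, read 2155.3 and 2630.1.

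**Figure D2:**
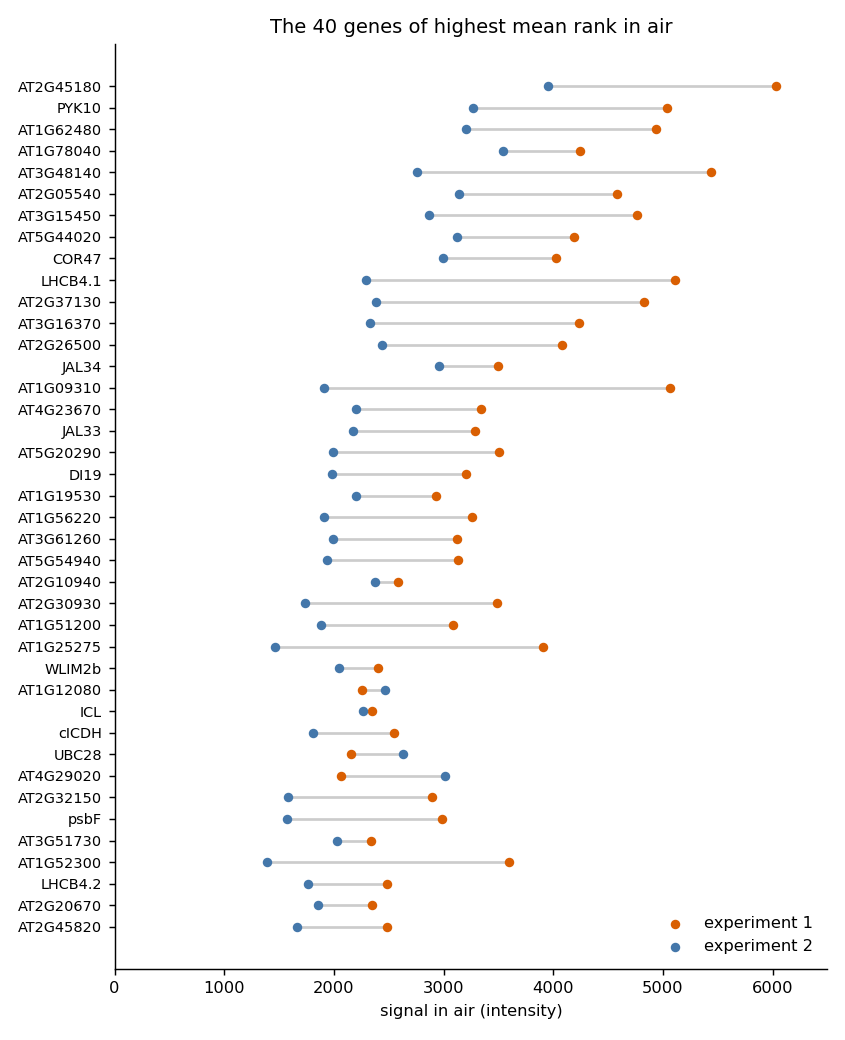
The horizontal axis gives the signal in air (intensity) and each row is one of the 40 named genes of highest mean rank, with experiment 1 in orange and experiment 2 in blue. Experiment 1 is the brighter array for all but AT1G12080, UBC28 and AT4G29020.

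Most of the measured ER body and lectin genes were high. ER bodies are compartments of the Brassicaceae that store PYK10, and jacalin-related lectins bind PYK10 when cells are damaged. JAL34 read 3495.1 and 2955.3, and its neighbour on the chromosome JAL33 read 3287.5 and 2174.8; they were the only adjacent pair of nuclear loci among the 72. NAI2, a protein needed to form ER bodies, read 1955.1 and 1270.6, and the lectin gene JAL22 read 1360.0 and 1416.9. The transcription factor gene NAI1, which drives PYK10 and NAI2, was dimmer at 199.5 and 148.8. The lectin gene JAL23 was near the floor at 10.3 and 7.0. Of the 7 measured genes of this group, out of 17 listed, 5 lay at or above the 90th percentile and 1 below the 30th, with a median of 98.7. The list was compiled after the values were seen, so these counts are a description.

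Several genes for the photosynthetic membrane were among the brightest of the dark-grown seedlings. A list of 50 nuclear genes for thylakoid proteins, compiled after the values were seen, held 9 measured genes. These 9 lay between the percentiles 97.7 and 99.8, and 5 of them were in the highest 1%. LHCB4.1, a minor antenna protein of photosystem II, read 5113.5 and 2293.9, and its paralogue LHCB4.2 read 2486.9 and 1761.2. AT2G26500, a small subunit of the cytochrome b6f complex, read 4076.2 and 2441.3. PSAE-1, a subunit of photosystem I, read 4702.7 and 1084.6, so its raw signals differed more between experiments than those of the other 3. The third LHCB4 gene, LHCB4.3, was measured but was not on that list, and it was much dimmer at 142.8 and 60.4.

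The list of light-grown tissue held 5 measured genes at percentiles of 97.1 to 99.8. LHCB4.1, LHCB4.2 and PSAE-1, already given above, are among them, so the 2 lists overlap. The others were RCA, which activates Rubisco, at 2449.3 and 1114.1, and PRK, a Calvin cycle kinase, at 1336.5 and 690.9. The one measured gene of the list for etiolated tissue was PORB, a protochlorophyllide reductase that etioplasts accumulate, at 2812.3 and 1507.1. These markers did not set the seedlings apart from green tissue, and the labelled darkness could not be checked by them. The 7 measured genes of chlorophyll synthesis had a median percentile of 93.0, and 4 of them lay at or above the 90th. AT1G74470, the geranylgeranyl reductase that supplies the chlorophyll side chain, read 2866.4 and 1296.7. CHLM, a methyltransferase of the magnesium branch, read 1479.2 and 739.7. CHLI2, a subunit of magnesium chelatase, read 457.5 in experiment 1 and 33.6 in experiment 2, so its place in the order is not settled by these 2 arrays. All 7 chlorophyll genes had a lower percentile in experiment 2 than in experiment 1 in air, whereas all 7 had a higher one in experiment 2 in anoxia, with or without sucrose.

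The 69 genes encoded in the plastid genome itself had a median percentile of 90.5. In air, 38 of them lay at or above the 90th percentile, none below the 30th, and 3 were in the highest 1%. Those 3 were psbF, a subunit of cytochrome b559, at 2983.3 and 1568.9, the ribosomal protein gene rpl33 at 2132.3 and 1552.7, and atpE, a subunit of the ATP synthase, at 1609.6 and 2022.8. The plastid genes were not uniformly high: rbcL, the large subunit of Rubisco, read 141.4 and 67.7, and ndhF read 24.1 and 62.7, the lowest of the 69. The gene psbA, which encodes the D1 protein of photosystem II, read 140.1 and 201.5.

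The plastid genes differed between the 2 experiments. Their median percentile was 85.4 in air in experiment 1 and 96.5 in experiment 2, and 57 of the 69 were higher in experiment 2. Single genes spanned a wide range: psbM read 1262.7 and 5340.9, the highest signal of the second air array, and psbH read 114.2 and 1268.1. For psaA, a core protein of photosystem I, the signals were 95 and 1230.6. By role, the median percentile on the 2 air arrays was 91.0 and 97.4 for 15 photosystem II genes, 82.7 and 98.7 for 5 photosystem I genes, and 87.7 and 98.2 for 6 ATP synthase genes. It was 88.8 and 96.1 for 15 ribosomal protein genes, 78.7 and 88.1 for 10 genes of the NDH complex, and 72.9 and 80.4 for 4 genes of the plastid RNA polymerase. Every one of these roles stood higher in experiment 2, and the RNA polymerase genes were the lowest of them on both arrays.

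In anoxia, 60 of the 69 plastid genes were higher in experiment 2, with medians of 89.4 and 97.5. In anoxia with sucrose 38 of 69 were, with medians of 93.3 and 94.9, a smaller gap than in air. Over all 13286 loci, 6610 were higher in experiment 2 in air, 6362 in anoxia and 6450 in anoxia with sucrose. Of 23 probe sets whose annotated symbols are mitochondrial genes, 19 were higher in experiment 2 in air, with medians of 40 and 54.1, and none reached the 90th percentile. The 3′ to 5′ control ratios given above were lower in air in experiment 2. In anoxia the first pairs gave 2.75 and 2.59 for actin and 1.56 and 2.12 for GAPDH in experiments 1 and 2. The second pairs there gave 8.36 and 11 for actin and 1.13 and 0.855 for GAPDH. With sucrose, the first pairs gave 21.6 and 1.7 for actin and 7.61 and 1.38 for GAPDH. The part of these ratios in the plastid gap was not tested.

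**Figure D3:**
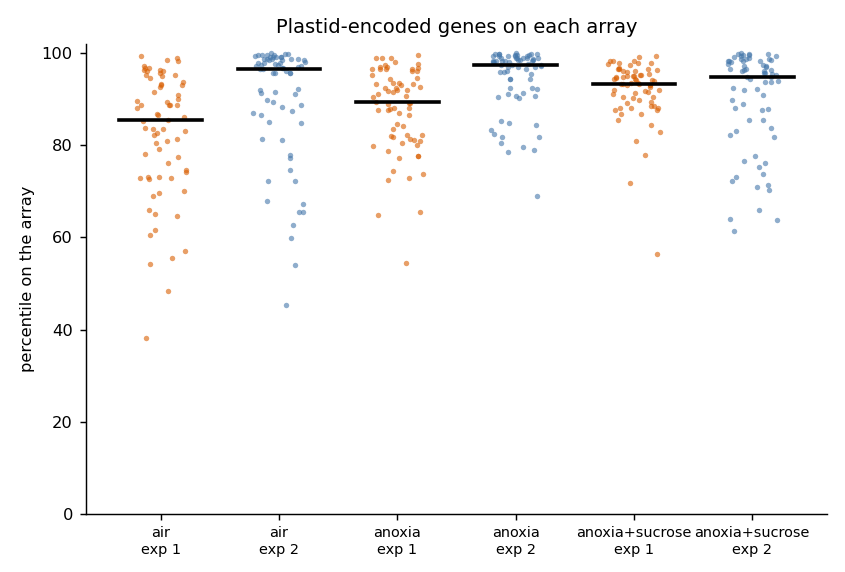
The vertical axis is the percentile of each of the 69 plastid-encoded genes within an array, and the horizontal axis gives the 6 arrays, with experiment 1 in orange, experiment 2 in blue and the median as a black bar. In air the median is 85.4 in experiment 1 and 96.5 in experiment 2.

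Genes of the cytosolic ribosome were mostly bright. Of 216 ribosomal protein loci listed, 127 were measured, with a median percentile of 93.7. At or above the 90th percentile lay 82 of them (64.6%), beside 6.93% of all loci, and 6 were in the highest 1%. The small-subunit gene AT5G20290 read 3505.8 and 1995.5, and the large-subunit gene AT1G52300 read 3594.4 and 1393.1. Ribosomal proteins are encoded by several near-identical genes each, so a probe set can collect signal from more than one, and single loci are uncertain. At the other end 9 of the 127 (7.09%) lay below the 30th percentile, beside 35.8% of all loci. Among them were AT3G10950 at 0.9 and 0.5 and AT5G40040 at 1.7 and 1.3. Only 22 of the 127 had a higher percentile in experiment 2 than in experiment 1 in air, beside 6610 of all 13286 loci. In anoxia 58 of the 127 did, beside 6362 of all loci, and in anoxia with sucrose 28 did, beside 6450. The elongation factor gene AT5G19510 read 1644.9 and 1307.4, and EIF4A-2, an initiation helicase, read 617.1 and 352.8.

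Genes for using stored reserves and for sparing carbon were also high. ICL, isocitrate lyase of the glyoxylate cycle, read 2347.5 and 2264.8, at percentiles of 99.1 and 99.6. The beta-oxidation gene AIM1 read 320.1 and 250.9, and SDP1, the lipase that opens the oil bodies, read 257.0 and 212.2. The 3 measured genes of leucine breakdown lay close to one another: MCCA read 1503.7 and 1516.0, MCCB read 953.8 and 1105.8, and IVD read 859.4 and 816.3. MCCA and MCCB are the 2 subunits of methylcrotonyl-CoA carboxylase, and IVD is isovaleryl-CoA dehydrogenase, all known to rise when sugar is short. ATG8F, a protein of the autophagosome membrane, read 2359.7 and 1187.0, and the protease genes AT4G01610 and APA1 were in the highest 1% too. PAP85, a vicilin-like seed storage protein, read 254.6 and 38.9 and was higher in experiment 1 in each of the 3 groups.

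Glycolysis and respiration spread over the upper part of the range. GAPC2, a cytosolic glyceraldehyde-3-phosphate dehydrogenase, read 1955.4 and 1311.4, and TPI, triose phosphate isomerase, read 1859.6 and 712.3. The other 5 measured genes of the list for glycolysis and sucrose lay between the percentiles 68.8 and 88.9. Of those, PPDK, pyruvate orthophosphate dikinase, was the one brighter in experiment 2, at 231.6 and 521.4. Cytochrome c was read from CYTC-1 at 1187.3 and 650.4 and from CYTC-2 at 103.3 and 60.9, so the paralogues differed in signal on both arrays.

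Genes for growth by cell expansion were uneven within their families. Tubulins, which build the microtubules that guide cellulose, were high as a group: 6 of 7 lay at or above the 90th percentile, led by TUA6 at 2183.5 and 1654.8. Among 14 measured expansins, which loosen walls, EXPA8 read 1041.8 and 850.5 and EXPA4 read 399.6 and 296.6. The expansin median was only 48.2, and EXPA21 read 1.7 and 0.6. Among 9 XTH genes, which cut and rejoin xyloglucan, XTH18 read 763.2 and 715.4 and XTH26 read 1.7 and 0.5. Of 8 genes of the cellulose synthase-like family, CSLC04 was the brightest at 706.0 and 423.0. COB, which orients cellulose deposition, read 362.9 and 562.7.

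Signalling genes of the dark-grown seedling were measured in small numbers. EIN3, the transcription factor at the end of the ethylene pathway, read 624.8 and 688.2. Among 7 Aux/IAA repressors, IAA18 read 230.1 and 250.5, IAA29 read 167.9 and 199.8, and IAA33 read 3.4 and 8.1. BZIP53, a transcription factor of the low-energy response, read 847.9 and 647.4, the highest of 7 bZIP genes. The mitotic kinase gene AUR1 read 111.6 and 50.7. All 4 measured histone H2B genes had a lower percentile in experiment 2, led by HTB4 at 1352.6 and 495.8, and the same 4 were lower in experiment 2 in both other groups.

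The hypoxia-responsive list was spread from the bottom to the top of the range while oxygen was present. Its 17 measured genes ran from the percentile 11.1 to 99.5, with 3 at or above the 90th and 4 below the 30th. AT1G19530 read 2929.0 and 2197.2 in air, AT4G27450 read 1278.0 and 1320.3, and AT4G39675 read 1581.1 and 1038.6. At the other end AT5G10040 read 4.5 on both air arrays and AT4G24110 read 3.4 and 1.9. PDC2, a pyruvate decarboxylase of the ethanol pathway, read 73.9 and 75.7. MT1C, a metallothionein, read 3081.7 and 1431.0. The median percentile was 32.0 for 26 cytochromes P450, 45.0 for 14 glutathione transferases and 46.0 for 6 WRKY transcription factors, the last 2 close to the 44.8 of all loci. The constitutive chaperone genes AT3G09440 and Hsp70-2 read 361.6 and 335.7, and 64.6 and 104.0. The 5 measured genes of the list of heat-induced small chaperones lay between 41.8 and 51.7, in the middle of the range.

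Markers of other organs and of rare cell types ran from near the floor to the middle of the range. All 3 pollen genes lay below the 30th percentile, beside 35.8% of all loci. They were led by MGH3, the male-gamete histone, at 9.7 and 5.0. CLV3, made by a few cells of the shoot meristem, read 11.8 and 1.3. The stomatal regulators SPCH, MUTE and FMA read 37.2 and 2.9, 11.5 and 7.0, and 18.8 and 17.7. The root hair expansins EXPA7 and EXPA18 read 17.8 and 2.7, and 47.0 and 19.7, and EXPA18, at a mean percentile of 45.8, was the highest of these markers. Lists of embryo regulators, flower organs, vascular tissue, epidermis, aquaporins and gibberellin or brassinosteroid genes had no member matched to a probe set. They give no check, and their signals may lie among the unnamed probe sets.

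**Figure D4:**
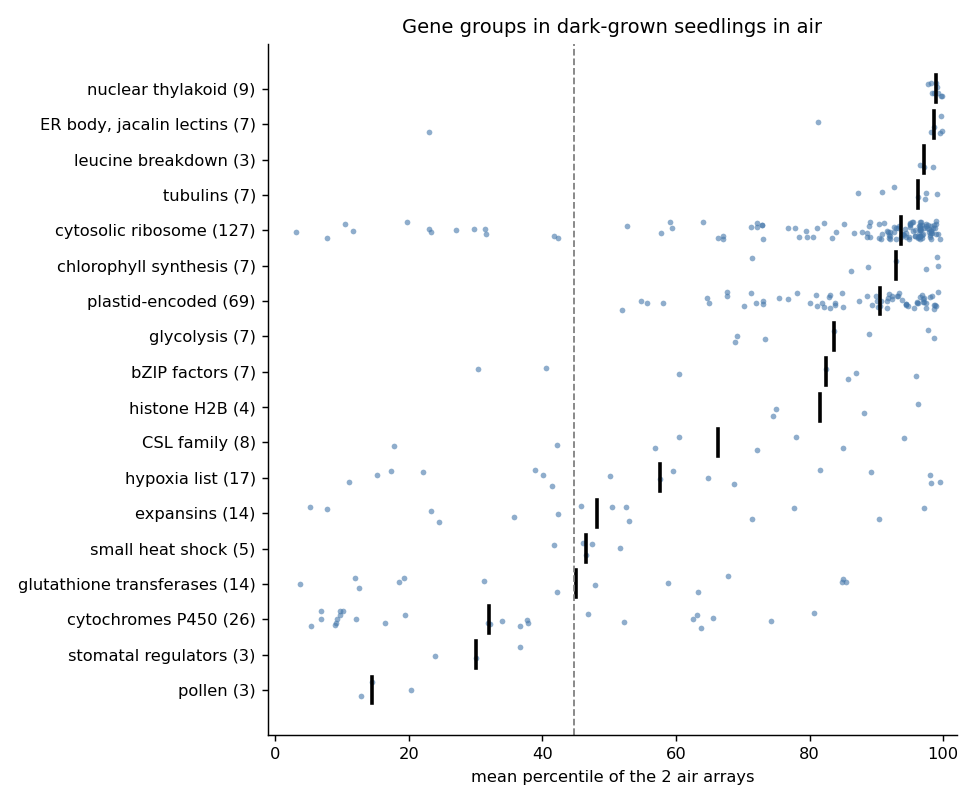
Each point is a gene, placed by its mean percentile over the 2 air arrays, with the number of measured genes of each group in parentheses, the group median as a black bar and the median of all 13286 loci (44.8) as a dashed line. Nuclear thylakoid, ER body and leucine breakdown genes have the highest medians, and pollen genes and stomatal regulators the lowest.

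Loci annotated as pseudogenes filled much of the bottom of the order. Of 923 pseudogenes, 842 (91.2%) lay below the 30th percentile, beside 31.5% of 12224 nuclear protein-coding loci, and none reached the 90th. Of the 8 lowest named loci, 6 are pseudogenes, such as AT4G08100, which read 0.0 and 0.1, and the protein-coding AT5G52690 read 0.2 and 0.1. In the lowest 1%, 177 of 227 probe sets were matched to a locus, of which 101 are protein-coding. Only 9 of 989 pseudogenes or transcribed pseudogenes reached the 50th percentile. AT1G35612 led them with 761.2 and 162.1, far above the next, AT4G08220, at 113.9 and 80.1.

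The edge of the highest 1% was not sharp. Just inside it were AT5G15200, a ribosomal protein gene, RCA and DRT100, a leucine-rich repeat protein gene, at percentiles of 98.81 to 98.82. Just outside were ALDH7B4, an aldehyde dehydrogenase gene, AT4G37220 and ATPMEPCRD, at 98.77 to 98.79.

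Some moderately bright genes differed widely between the 2 air arrays. Over all probe sets, 1536 (6.75%) differed by 20 percentile points or more. Hop3, a co-chaperone that joins HSP70 to HSP90, read 18.3 in experiment 1 and 115.8 in experiment 2. AT5G41940 read 19.9 and 101.8. In the other direction VTC4, an enzyme of ascorbate synthesis, read 227.6 and 22.7, and AT3G50270 read 144.5 and 11.9. GI, a clock gene, read 41.4 and 183.8.

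These differences recurred in part in the other groups. Among 11438 probe sets at or above the 50th percentile in air, 277 were higher by 20 points or more in experiment 2. Of these 277, 244 (88.1%) were also higher in experiment 2 between the anoxia arrays and 244 (88.1%) between the arrays of anoxia with sucrose, beside 49.4% and 54.6% of all 11438. In the opposite direction 323 probe sets were lower by 20 points or more in experiment 2, and 184 (57.0%) and 214 (66.3%) of them were lower there in the other groups, beside 50.5% and 45.4%. The labels do not say in what the experiments differed.

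**Figure D5:**
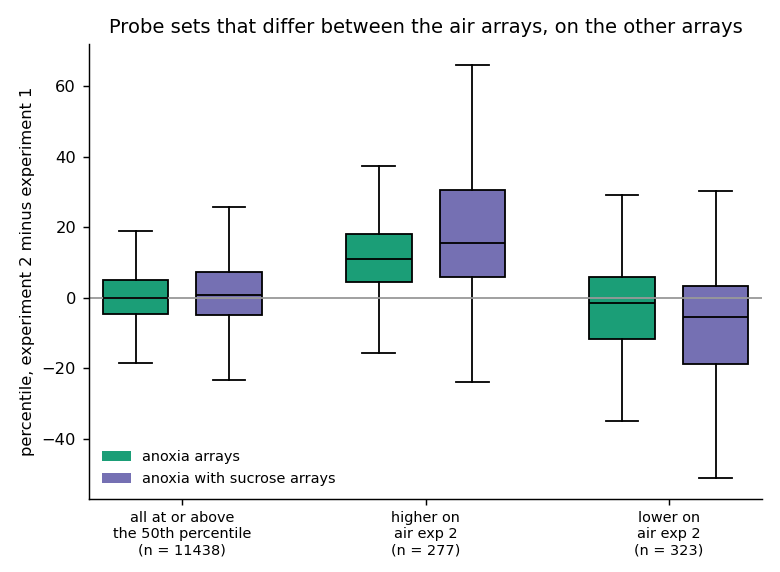
The vertical axis is the percentile in experiment 2 minus that in experiment 1 on the anoxia arrays (green) and on the arrays of anoxia with sucrose (purple). Boxes span the quartiles with the median as a line, and whiskers reach the last value within 1.5 box lengths; the 277 probe sets higher on the second air array have medians of 10.9 and 15.5 points, and the 323 lower ones have medians of -1.54 and -5.42.

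The genes brightest in air stayed bright after 6 h without oxygen. Of the 227 probe sets of the highest 1% in air, 154 and 152 were in the highest 1% of the anoxia arrays of experiments 1 and 2, and 123 and 168 in that of the arrays with sucrose. The array with the fewest, that of anoxia with sucrose in experiment 1, is the one with the actin ratio of 21.6, and the part of that ratio in the count was not tested. The lowest percentile that any of the 227 took on the 4 arrays without oxygen was 81.4, and their median on each of those arrays was at least 99.1. RCA read 111.3 on the array of anoxia with sucrose in experiment 1 and 2852.4 on that of experiment 2.

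Differences between the groups were tested with limma on log2(signal + 16) across all 6 arrays, with p-values adjusted by Benjamini-Hochberg over 15922 probe sets, without the experiment and then with it as a replicate block. This scale understates the change of dim genes, and both contrasts share the air arrays. Without the block, 0.232% of probe sets were called at an adjusted p under 0.05 for anoxia against air and 0.251% for anoxia with sucrose against air, and with the block 2.54% and 3.31%. The calls without the block, 37 and 40 probe sets, were not stable: leaving out either air array left 2 and 4 for anoxia and 0 for anoxia with sucrose, and leaving out either anoxia array left 0 for anoxia. Leaving out an array of anoxia with sucrose gave 80 and 81 for anoxia, and 23 and 71 for anoxia with sucrose. None of the 227 was called without the block, with 8 and 7 at an unadjusted p under 0.05, and with the block 3 (1.32%), all lower, and 5 (2.2%), 1 higher and 4 lower, were called. The 227 were chosen on their level in air, which is one side of both contrasts, so these counts are a description. Among those with a name, DRT100 read 2154.8 and 1304.8 in air, 516.0 and 322.9 in anoxia, and 211.1 and 627.5 with sucrose. It lay lower in anoxia by a log2 difference of -2.00 ± 0.51 (SE), with adjusted p = 0.248 in limma without the block and 0.0139 with it. AT5G54940, an SUI1-family translation initiation factor gene, was the one called higher: it read 3134.3 and 1933.8 in air and 4818.0 and 4924.3 in anoxia with sucrose. Its log2 difference was 1.10 ± 0.43 (SE), with adjusted p = 0.614 in limma without the block and 0.0376 with it.

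A few other genes that were bright in air lay lower without oxygen. They were named from their families after the values were seen, and their level in air is one side of the contrast, so the tests are a description. IAA29 read 15.7 and 26.6 in anoxia, a log2 difference from air of -2.45 ± 0.39 (SE) with adjusted p = 0.0437 in limma without the block and 5.34e-05 with it. For the others the call rests on the block. BZIP53 read 129.6 and 167.5 in anoxia, -2.22 ± 0.48 on the log2 scale, with adjusted p = 0.164 in limma without the block and 0.00507 with it. CSLC04 read 173.0 and 143.8, -1.70 ± 0.50, with adjusted p = 0.367 in limma and 0.0389 with the block. In anoxia the block called 1 of 5 tested Aux/IAA genes, 1 of 6 bZIP genes and 2 of 7 cellulose synthase-like genes, all lower. Over all probe sets it called 2.54%. Of the 5 wall-loosening genes, none was called without the block in either contrast, and with it 1 was lower in anoxia (EXPB1) and 3 in anoxia with sucrose (EXPA4, EXPB1 and XTH16). In the wider families the block called 1 of 10 tested expansins and 1 of 6 XTH genes in anoxia. With sucrose it called 2 of 10 and 2 of 6. Over all probe sets the block called 2.54% and 3.31% in the 2 contrasts.

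Genes of the hypoxia and small heat shock lists were higher without oxygen. Of the 17 hypoxia genes, 5 rose in anoxia by limma without the block, and with it 14 rose and 1, AT3G61930, fell. With sucrose 4 rose, and 13 with the block. Over all probe sets, limma without the block called 0.232% in anoxia and 0.251% in anoxia with sucrose. The lists were chosen with earlier results of these data known, so the counts for both lists are a description and not independent support. AT5G10040, AT4G24110, AT4G33560 and AT3G10040 lay below the 30th percentile in air. They passed the filter on mean signal through their signals without oxygen, so the filter favoured rises among such dim genes. AT5G10040, at 4.5 on both air arrays, read 2126.5 and 615.5 in anoxia. AT1G19530, the list's brightest gene in air, read 5611.7 and 3050.7 in anoxia, with adjusted p = 1 in limma, or 0.376 with the block. Of the 5 small heat shock genes, none was called in anoxia by limma without the block and all 5 with it, and 4 rose with sucrose, or 5 with the block. Of the 69 plastid genes, the block gave 1 called higher in each contrast, and without it none was called. Beside the 2.54% and 3.31% of all probe sets called with the block, that count does not mark the plastid genes out.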

How the data were processed

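The deposited table holds, for each of 6 arrays, 1 signal per probe set; the unit was taken as intensity on a linear scale from the values the authors deposited. For these intensities the software, scaling and background treatment were not given in the sources used here, and detection calls were not used. Genes came from the platform annotation, updated through RefSeq locus tags (TAIR10.1); 503 probe sets with several genes and 8730 with none stayed unnamed, and for a gene with several probe sets the brightest in air was taken. Percentile ranks were computed in Python 3.11.15 with pandas 2.3.3. Contrasts were fitted in R 4.3.3 with limma 3.58.1 (lmFit, eBayes with trend, two-sided) on log2(signal + 16) centred on each array's median, for probe sets whose mean signal reached the 30th percentile; the ranking and the fit were tested on simulated data. Only 2 arrays per group limit the precision, and p-values measure the spread between pooled samples.

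Named were the 40 highest and 8 lowest genes, up to 4 high and 2 low genes of each list, the 8 largest shifts each way and the 3 on each side of the edge. The members and lists were chosen with earlier results of these data known; the lists of all ribosomal proteins, thylakoid proteins, chlorophyll synthesis, ER bodies and the clock were compiled after the values were seen, as were the genes named from gene families, other genes of the highest 1%, the plastid genes singled out and the pseudogenes that led their class. The titles number the experiments across groups. Deviations of same-numbered arrays from their group means correlated across probe sets at 0.383 (air and anoxia), 0.392 (air and anoxia with sucrose) and 0.562 (the other pair). The numbers were therefore treated as pairs where experiments are compared and in the fit with the block. The main fit left the experiment out, and the block was an alternative setting. Features of protein and promoter sequence were planned and not analysed here. One gene family is not reported here.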

Additional observations from a re-analysis of the deposited data

How the results depend on the processing

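Ranking by the mean log2 signal kept 218 of the 227 probe sets of the highest 1%, and ranking on a single air array kept 176 to 187. The number in the highest share of both air arrays was 76 for 0.5% and 307 for 2%, beside 145 for 1%, and rho was 0.884 after a filter at the 30th percentile of the mean signal. Of the highest 2% in air, 333, 342, 275 and 360 of 454 were in the highest 2% of the 2 anoxia arrays and the 2 arrays with sucrose; these counts differ because the share is larger or smaller by construction. When only probe sets with 1 gene were ranked, the medians of all 41 gene lists rose, by 0.3 to 5.5 points. In 19 of them the rise passed the spread of the air arrays. Percentiles there are taken among fewer probe sets, and the median of all loci was not recomputed for that setting. No median moved when all probe sets of a gene were used. That setting hardly differs from the main one, because the 13436 matched probe sets represent 13286 loci.

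The counts of called probe sets depended on every setting. For anoxia against air (37), they were 2 with a pseudocount of 1, 82 with 64, 88 with no filter, 23 with quantile normalization, 404 with the experiment as a replicate block, and 0 to 81 when a single array was left out (0 to 4 for arrays of air or anoxia; 80 and 81 for arrays with sucrose, chosen after seeing the data). For anoxia with sucrose against air (40), they were 14, 99, 118, 22 and 527, and 0 to 71 with an array left out (17 and 21 for anoxia arrays, also chosen later). A group left with 1 array was assumed to vary like the others. The cause of these differences was not tested. Order among signals below 16 is not interpretable.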
